A study of Mus musculus with 6 samples.

Results

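The transcripts described here are those of 10 surface proteins by which mouse blood stem cells are sorted or recognised: Kit, Ly6a, Cd34, Flt3, Cd48, Slamf1, Procr, Eng, Tek and Esam. They were taken by gene symbol from 21851 genes, and all 10 were listed. The RNA came from bone marrow of wild-type (WT) mice, with 3 libraries from mice given a control diet (CD) and 3 from mice given a high cholesterol diet (HCD), each diet lasting 3 months. The sorted cells are labelled LT-HSC, for long-term haematopoietic stem cell. The submitters give the gate as lineage-negative, KIT-positive and SCA1-positive with no CD34 and no CD135 on the surface. The labels name no age, strain, transgene or deletion, and they do not say whether mice were pooled for a library or whether libraries of a group are separate animals. The spread that the p-values measure may thus be technical.

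Haematopoietic stem cells are rare bone marrow cells that renew themselves and feed all blood lineages, and they are isolated with antibodies against combinations of surface proteins. In the mouse, cells without lineage antigens that carry KIT and SCA1 hold both stem cells and multipotent progenitors. Absence of CD34, CD135 and CD48, and presence of CD150, EPCR and ESAM, are used within that population to enrich for the long-term stem cells. An antibody gate reads protein at the cell surface, whereas the values below are transcript levels in the whole sorted population. Fewer cells of a type and less RNA per cell cannot be told apart in such bulk samples.

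The values are FPKM, read numbers scaled by transcript length and library depth, so levels can be set side by side between genes. The step that 1 read makes in low values put the depth of a library between 18870000 and 20110000 reads or fragments, and 10549 to 10675 genes reached 1 FPKM in each. HCD replicate 2 stood apart from the other HCD libraries, at -14.66 on the second principal component against 7.81 and 10.11. Among the 10 marker genes it lay farther from both other HCD libraries than these lay from each other in 4. Results for the 10 marker genes are therefore given with and without it where it changes a call.

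To show the regulatory sequence next to the highest transcript and next to a pair of neighbouring genes with very different levels, the 250 bases before the RefSeq start site are printed for Cd34, Cd48 and Slamf1 (GRCm38.p6). Cd48 and Slamf1 lie on the plus strand of chromosome 1 with 61868 bases between them. Capitals mark matches, on either strand, to GATAA (the core read by GATA factors), AGGAAG (an ETS core) and TGTGGT (a RUNX core). The windows are chr1:194938571-194938820 for Cd34, chr1:171681742-171681991 for Cd48 and chr1:171766882-171767131 for Slamf1, all on the plus strand.
Cd34: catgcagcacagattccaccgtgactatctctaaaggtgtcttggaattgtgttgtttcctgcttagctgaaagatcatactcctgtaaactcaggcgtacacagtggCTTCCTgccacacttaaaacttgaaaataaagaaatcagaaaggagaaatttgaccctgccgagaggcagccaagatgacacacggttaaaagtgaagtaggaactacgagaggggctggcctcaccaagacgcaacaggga
Cd48: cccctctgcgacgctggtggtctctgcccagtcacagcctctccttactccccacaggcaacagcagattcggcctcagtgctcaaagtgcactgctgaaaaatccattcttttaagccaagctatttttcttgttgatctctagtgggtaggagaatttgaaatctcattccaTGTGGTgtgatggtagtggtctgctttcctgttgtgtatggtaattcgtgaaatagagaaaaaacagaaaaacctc
Slamf1: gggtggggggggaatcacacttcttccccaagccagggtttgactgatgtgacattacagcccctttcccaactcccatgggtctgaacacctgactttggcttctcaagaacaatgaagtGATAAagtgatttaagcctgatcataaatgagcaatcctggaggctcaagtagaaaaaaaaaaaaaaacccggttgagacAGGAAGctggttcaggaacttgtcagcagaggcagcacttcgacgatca

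A promoter window was at hand for 8 of the 10 genes. GATAA was found in 1 of the 8, Slamf1, and in 22.6% of 32851 such windows over all genes. AGGAAG was found in 4 of the 8 (Cd34, Eng, Kit and Slamf1) and in 29.5% of all windows, and TGTGGT in 1 of the 8, Cd48, and in 14.0% of all windows. None of these motifs overlapped another in the printed windows. A match is a description of the letters and not of bound factor.

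The transcripts of both proteins that the gate excludes were among the most abundant in the libraries. Cd34, which encodes a sialomucin of progenitor and endothelial surfaces (chromosome 1, 194938819 to 194961279, GRCm38), stood at 462.1, 488.4 and 461.5 FPKM in CD and at 448.8, 477.8 and 448.0 FPKM in HCD. It ranked between 111th and 118th of 10676 tested genes, above 98.9% of them in the lowest library. About 26000 to 29000 reads stand behind each value. Flt3, which encodes CD135, the receptor tyrosine kinase for FLT3 ligand (chromosome 5, 147330741 to 147400489), stood at 113.9, 112.4 and 114.7 FPKM in CD and 106.7, 99.7 and 107.0 FPKM in HCD. It lay above 94.2% to 95.4% of tested genes.

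Of the transcripts of the proteins that the gate requires, Kit lay near Flt3 and Ly6a lower. Kit, the receptor for stem cell factor (chromosome 5, 75574916 to 75656722), was at 122.3, 120.7 and 122.0 FPKM in CD and at 119.0, 114.0 and 121.7 FPKM in HCD. Ly6a, which encodes the lipid-anchored protein SCA1 (chromosome 15, 74994877 to 74998031), was at 64.4, 70.0 and 65.9 FPKM in CD and at 61.9, 63.6 and 59.4 FPKM in HCD. Cd34 exceeded Kit in 6 of 6 libraries, with a ratio of FPKM from 3.68 to 4.19. Flt3 exceeded Ly6a in 6 of 6. The level of Ly6a is less certain than the others, because 18.97% of the 50-base windows of its transcripts also occur in transcripts of another gene, most often Ly6c1. Ly6c1 itself was listed at no more than 0.414 FPKM. How reads of shared windows were assigned is not known, so that value does not settle the level of Ly6a. For the other 9 genes the shared part was 2.23% at most, in Slamf1.

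The SLAM family pair parted in level. Cd48, a lipid-anchored protein of multipotent progenitors and most blood cells (chromosome 1, 171682009 to 171705258), stood at 69.2, 66.9 and 67.4 FPKM in CD and 69.1, 74.8 and 73.7 FPKM in HCD. Slamf1, which encodes CD150 (chromosome 1, 171767127 to 171801184), was at 1.57, 2.33 and 1.47 FPKM in CD and 3.38, 3.15 and 3.69 FPKM in HCD. Cd48 was higher in 6 of 6 libraries, with a ratio of means of 27.0. Slamf1 was the lowest of the 10 and lay above only 4.4% to 16.9% of tested genes. About 120 to 310 reads stand behind each of its values.

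The remaining genes encode receptors and an adhesion protein shared by stem cells and endothelium. Eng (endoglin, a TGF-beta co-receptor, chromosome 2, 32646595 to 32682669) was at 36.6, 36.8 and 36.7 FPKM in CD and 32.4, 35.5 and 34.2 FPKM in HCD. Procr (EPCR, the receptor for protein C, chromosome 2, 155751117 to 155755471) was at 20.8, 19.2 and 19.8 FPKM in CD and 22.2, 20.0 and 24.3 FPKM in HCD. Esam (an immunoglobulin-domain adhesion protein of cell junctions, chromosome 9, 37528078 to 37538319) was at 14.1, 14.3 and 15.6 FPKM in CD and 18.3, 16.6 and 21.7 FPKM in HCD. Among tested genes Eng lay above 78.3% to 80.8%, Procr above 63.2% to 70.7% and Esam above 52.8% to 67.1%, depending on the library. Tek (TIE2, the angiopoietin receptor, chromosome 4, 94739289 to 94874976) was at 3.60, 4.37 and 4.53 FPKM in CD and 6.03, 5.46 and 4.73 FPKM in HCD, above 16.5% to 27.7% of tested genes.

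**Figure D1:**
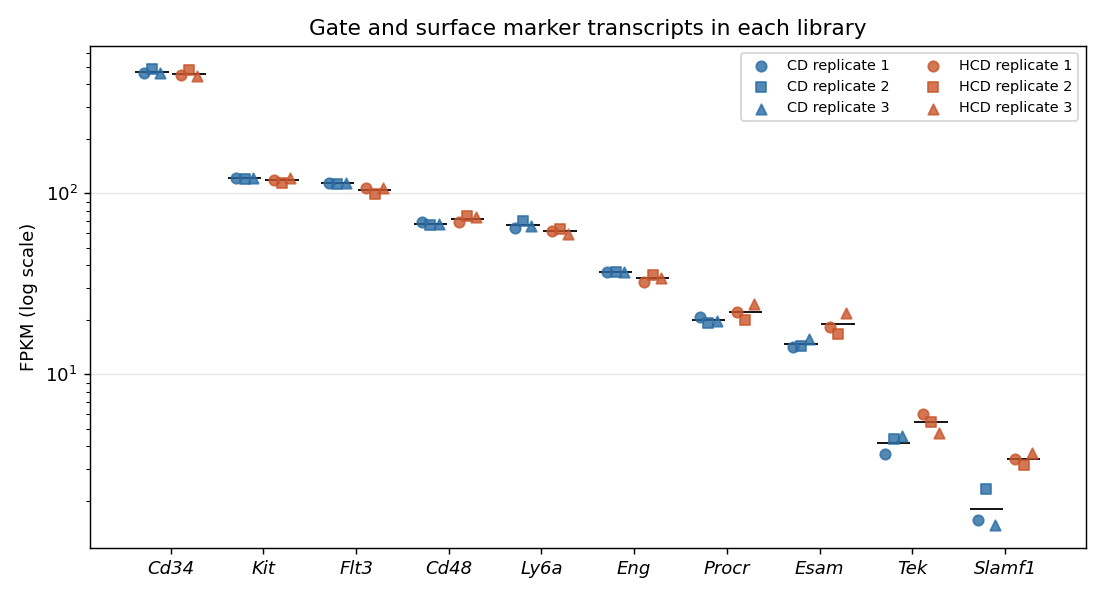
FPKM on a log scale of each of the 10 transcripts in each library, CD in blue and HCD in orange, with a bar at each group mean of 3 libraries. Cd34 lies near 464.4 FPKM and Slamf1 near 2.60 FPKM, and for Slamf1, Esam and Tek the HCD points lie above all CD points.

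Averaged over the 6 libraries, the order was Cd34 at 464.4 ± 16.0 FPKM (SD, n = 6 here and for each of the 10), Kit at 119.9 ± 3.17, Flt3 at 109.1 ± 5.73, Cd48 at 70.2 ± 3.28 and Ly6a at 64.2 ± 3.59. Then came Eng at 35.4 ± 1.74 FPKM, Procr at 21.0 ± 1.91, Esam at 16.8 ± 2.90, Tek at 4.79 ± 0.86 and Slamf1 at 2.60 ± 0.95. The median tested gene had a mean of 12.7 FPKM, and 8 of the 10 lay above the median gene in every library. The library ranges of neighbours in this order overlapped for Kit and Flt3, Cd48 and Ly6a, Procr and Esam, and Tek and Slamf1. Within single libraries Kit still exceeded Flt3, Procr exceeded Esam and Tek exceeded Slamf1 in 6 of 6, and Cd48 exceeded Ly6a in 5 of 6. The other neighbours did not overlap. The abundant members also varied least over all 6 libraries, a spread that includes any difference between diets. The coefficient of variation was under 10% in 7 genes, from 2.6% in Kit to 9.1% in Procr. It was 17.3% in Esam, 17.9% in Tek and 36.6% in Slamf1, against a median of 9.3% over tested genes. Within CD and within HCD it was 5.9% and 13.9% in Esam, 11.9% and 12.1% in Tek, and 26.3% and 8.0% in Slamf1.

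**Figure D2:**
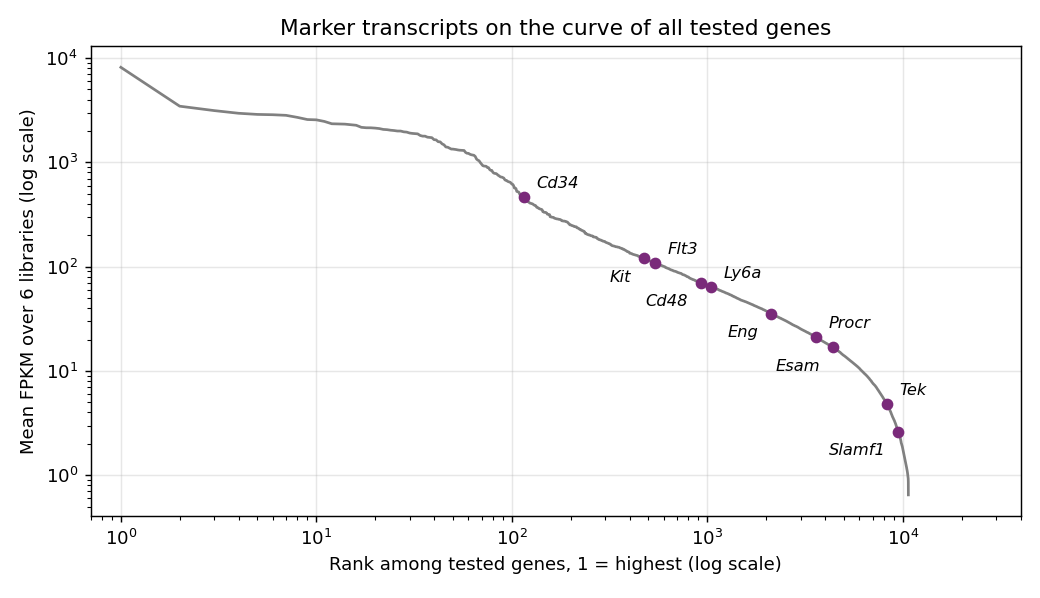
Mean FPKM over 6 libraries against rank for all 10676 tested genes (grey line, both axes on a log scale), with the 10 marker genes as points. Cd34 ranks between 111 and 118 in single libraries, while Tek and Slamf1 lie on the steep lower end of the curve.

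The levels were set against other genes used to tell the cells in such a sort. Of 17 genes used as reporters of, or largely restricted to, long-term stem cells, 14 were tested, and the FPKM of all 17 summed to 141.0 to 149.9 in CD and 146.1 to 147.1 in HCD, with 0 of them at 0 in all libraries. Hlf, a transcription factor gene of stem cells, held the largest part, at 56.2 ± 0.76 FPKM in CD (SD, n = 3) and 48.8 ± 1.76 in HCD. Hoxb5, used as a reporter of long-term stem cells, was at 0.88 ± 0.31 and 0.93 ± 0.36 FPKM, and Fgd5, another such reporter gene, at 4.47 ± 0.54 and 3.16 ± 0.04. In contrast Mpo, the myeloperoxidase gene of granulocyte and monocyte progenitors, was at 475.4 ± 12.04 FPKM in CD and 758.3 ± 71.78 in HCD, and Dntt, the terminal transferase gene of early lymphoid cells, at 321.7 ± 16.78 and 280.8 ± 23.63. With Slamf1 low and Cd34, Flt3 and Cd48 high, these transcript levels go against the labelled cell type, and the libraries are referred to by their label.

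Of 14 genes behind common lineage antibodies, 9 stayed below 1 FPKM in every library. The T cell receptor gene Cd3e was listed at 0 in all 6. The summed FPKM of the 14 was 18.7 to 19.2 in CD and 21.8 to 26.4 in HCD. Most of it was Itgam (CD11b of myeloid cells), which rose from 10.9 ± 0.13 to 15.4 ± 1.91 FPKM (limma adjusted p = 0.0113). Klrb1c rose from 0.63 ± 0.26 to 1.26 ± 0.04 FPKM (adjusted p = 0.0391), and Cd4 fell from 2.01 ± 0.28 to 1.12 ± 0.33 (adjusted p = 0.0357). With no filter on low values Klrb1c and Cd4 did not pass (adjusted p = 0.0618 and 0.0674), and Itgam did not without CD replicate 1 (0.0558).

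The comparison of HCD with CD asks whether the marker transcripts differ in the sorted cells after the cholesterol-rich diet. Slamf1 and Esam rose under HCD, and none of the 10 fell by the test. Slamf1 went from 1.79 ± 0.47 to 3.41 ± 0.27 FPKM (SD, n = 3), a ratio of means of 1.91, and Esam from 14.7 ± 0.86 to 18.9 ± 2.62 FPKM, a ratio of 1.29. The 4 genes that define the gate, Kit, Ly6a, Cd34 and Flt3, differed by less than 10% between the group means. The test was limma on log2(FPKM + 1) over 10676 genes, with an adjusted p under 0.05 as the threshold. It called 13.9% of all tested genes (6.28% higher and 7.66% lower), against 2 of these 10. With so few members the share does not set them apart from other genes. After TMM scaling the calls over all genes were 797 higher and 564 lower, against 670 and 818 without it, and the 2 calls among the markers were those of Slamf1 and Esam.

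For Slamf1 the log2 change was 0.67 with a standard error of 0.13 and a 95% interval of 0.38 to 0.96 (limma adjusted p = 0.0118). The HCD libraries lay above all CD libraries, and the highest CD library, replicate 2 at 2.33 FPKM, was nearer to the HCD values than the others were. The log2(FPKM + 1) scale understates the change of so low a gene, and with a pseudocount of 0.1 the log2 change was 0.92. The adjusted p was 0.0598 without CD replicate 1 and 0.0559 without CD replicate 3, so leaving out either ended the call, and it was 0.00498 without HCD replicate 2.

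For Esam the log2 change was 0.34 with a standard error of 0.09 and a 95% interval of 0.12 to 0.55 (limma adjusted p = 0.048). Its HCD libraries also lay above all CD libraries, with HCD replicate 3 the highest at 21.7 FPKM. The adjusted p lies just under the threshold and passed it in 6 of 14 alternative settings, ranging from 0.00466 without HCD replicate 2 to 0.16 without CD replicate 1. It was 0.0957 with no filter on low values, 0.0606 with the length trend removed and 0.0667 without the variance trend and robust fit. Leaving out any library other than HCD replicate 2 ended the call, with an adjusted p of 0.0925 without CD replicate 3, 0.143 without CD replicate 2, 0.102 without HCD replicate 1 and 0.0872 without HCD replicate 3.

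**Figure D3:**
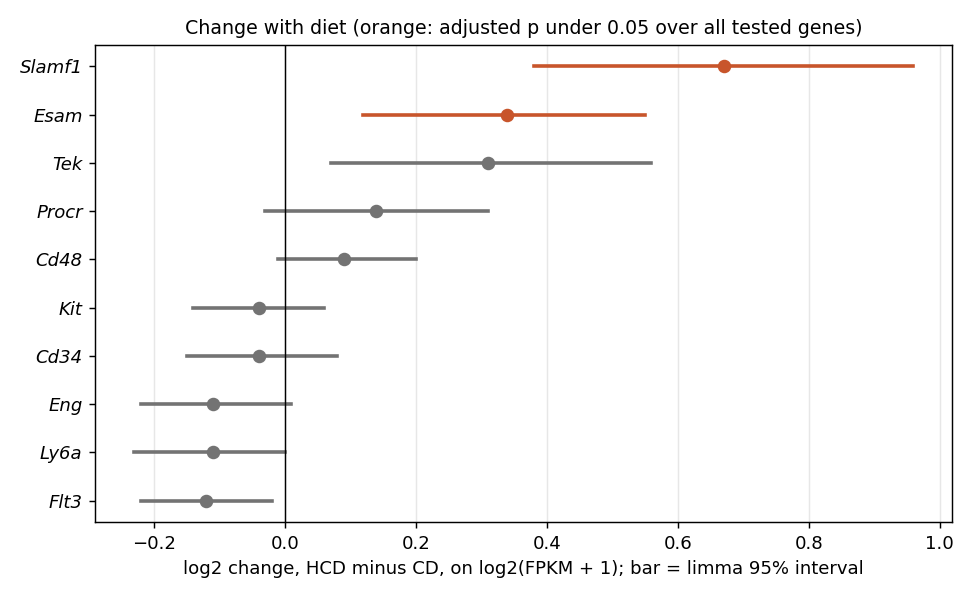
The log2 change from CD to HCD on log2(FPKM + 1) for each transcript, with its limma 95% interval from 3 against 3 libraries. The intervals of Slamf1 (0.38 to 0.96) and Esam (0.12 to 0.55) lie above 0 and both genes passed the adjusted threshold (orange), while Tek and Flt3 have intervals that exclude 0 but did not pass it.

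Tek and Flt3 had an unadjusted p under 0.05 but did not pass adjustment over all genes. Tek was at 4.17 ± 0.50 FPKM in CD and 5.41 ± 0.65 in HCD, a log2 change of 0.31 with an interval of 0.07 to 0.56 (limma adjusted p = 0.0899). Its groups did not overlap, although CD replicate 3 at 4.53 and HCD replicate 3 at 4.73 FPKM were close. Flt3 was at 113.7 ± 1.19 FPKM in CD and 104.5 ± 4.12 in HCD, a log2 change of -0.12 with an interval of -0.22 to -0.02 (adjusted p = 0.104). All HCD libraries lay below all CD libraries, and HCD replicate 2 was the lowest at 99.7 FPKM.

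The intervals of Kit and Cd34 spanned no change. Kit was at 121.7 ± 0.84 FPKM in CD and 118.2 ± 3.94 in HCD, with an interval of the fold from 0.91 to 1.04 (limma adjusted p = 0.541). Its sign turned when the trend with transcript length was removed, to a log2 change of 0.02. Cd34 was at 470.7 ± 15.36 FPKM in CD and 458.2 ± 16.96 in HCD, with a fold of 0.90 to 1.05 (adjusted p = 0.635). In both genes the groups overlapped. Ly6a was at 66.7 ± 2.89 FPKM in CD and 61.6 ± 2.08 in HCD, without overlap, with a fold of 0.86 to 1.0 (adjusted p = 0.162). These fold intervals are on the FPKM + 1 scale.

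Cd48, Procr and Eng did not pass either. Cd48 was at 67.9 ± 1.19 FPKM in CD and 72.5 ± 3.01 in HCD (log2 change 0.09, limma adjusted p = 0.204). Procr was at 19.9 ± 0.83 and 22.2 ± 2.15 FPKM (log2 change 0.14, adjusted p = 0.227), and Eng at 36.7 ± 0.12 and 34.0 ± 1.56 FPKM (log2 change -0.11, adjusted p = 0.184). HCD replicate 2 was the HCD library nearest to CD for both Procr and Eng. Without it Procr passed as higher (log2 change 0.21, adjusted p = 0.0281) and Eng as lower (log2 change -0.13, adjusted p = 0.0493). In that setting 4 of the 10 genes were called, but calls over all 10676 tested genes also rose, from 1488 to 2707. The added calls thus do not set the markers apart.

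Counted by separation alone, CD and HCD were apart in 6 of the 10 genes, with Slamf1, Esam and Tek higher and Flt3, Ly6a and Eng lower in HCD. Over all tested genes the groups did not overlap in 37.7% (15.0% higher and 22.7% lower). The median log2 change of the 10 was 0.03, against -0.03 over all tested genes, and their median size of change was 0.12, the same as over all tested genes.

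**Figure D4:**
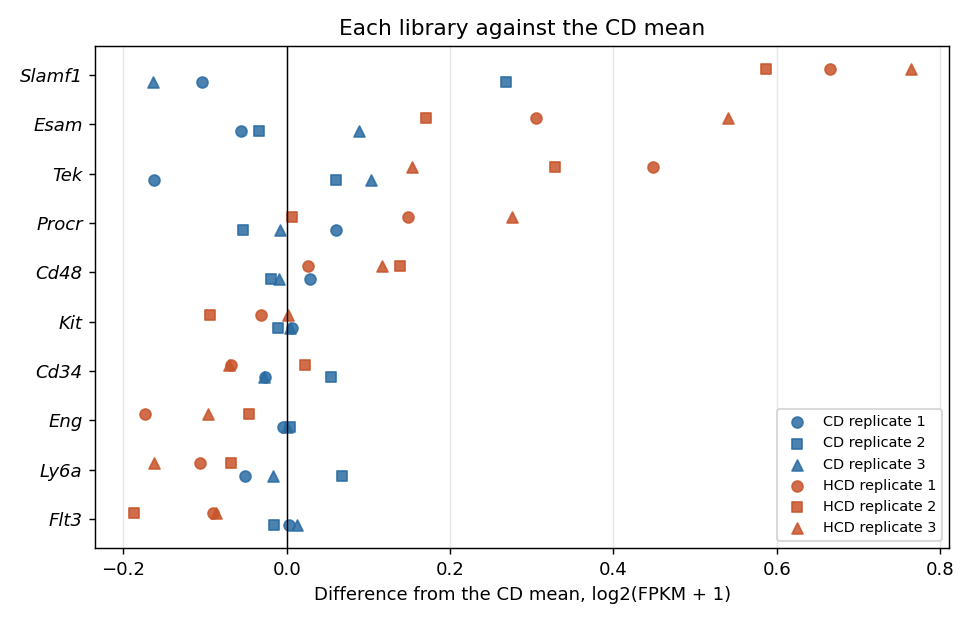
Difference of each library from the CD mean on log2(FPKM + 1), CD in blue and HCD in orange, with 1 marker shape per replicate number. The Slamf1 points of HCD lie at 0.587 to 0.764, and those of Kit and Cd34 mix with the CD points.

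Ligands and signalling partners of these proteins were listed as 29 symbols, of which 19 were tested. Of these 3 rose and 1 fell, against 13.9% called in either direction over all tested genes, and 1 rose and 0 fell when any 1 CD library was left out. Over all tested genes the calls fell from 1488 to 439, 556 and 513 without CD replicate 1, 2 and 3, so counts shrink there in general. Selp, which encodes P-selectin, an adhesion receptor of platelets and endothelium, rose from 9.61 ± 0.50 to 17.5 ± 1.01 FPKM (limma adjusted p = 0.000493). F2r, the thrombin receptor PAR1 through which protein C bound to EPCR can signal, rose from 19.8 ± 0.58 to 24.1 ± 1.80 FPKM (adjusted p = 0.0289). Tgfbr3, the TGF-beta co-receptor betaglycan, rose from 3.69 ± 0.43 to 4.98 ± 0.27 FPKM (adjusted p = 0.0396). Cbl, a ubiquitin ligase that turns over activated KIT and other receptor kinases, fell from 22.3 ± 0.22 to 18.8 ± 1.63 FPKM (adjusted p = 0.0496). The last 3 calls were lost with no filter (adjusted p = 0.0539 for F2r, 0.0658 for Tgfbr3 and 0.0832 for Cbl), and Cbl reached 0.49 with the length trend removed. Selp passed in every alternative.

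Of the ligands themselves, Angpt1, the activating ligand of TIE2, was abundant at 108.6 ± 1.77 FPKM in CD and 118.6 ± 4.31 in HCD (limma adjusted p = 0.0927). Flt3l was at 4.98 ± 0.19 and 5.83 ± 1.28 FPKM (adjusted p = 0.393). Kitl, the stem cell factor gene, reached at most 0.083 FPKM, and Angpt2 was listed at 0 in all libraries. Acvrl1, the ALK1 receptor that pairs with endoglin in endothelium, reached at most 0.617 FPKM, whereas Tie1, the receptor related to TIE2, stood at 31.5 ± 1.51 and 31.4 ± 2.15 FPKM.

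In the SLAM family 5 of 9 listed genes were tested, and Slamf1 rose while Ly9 fell, against 13.9% called over all tested genes. Ly9, which encodes CD229, went from 21.3 ± 0.82 to 16.9 ± 0.35 FPKM (limma adjusted p = 0.00882, but 0.0529 without CD replicate 1). Cd244, the receptor for CD48, was at 11.7 ± 0.27 FPKM in CD and 12.6 ± 1.25 in HCD (adjusted p = 0.431). Slamf6, Slamf7, Slamf8 and Slamf9 stayed below 1 FPKM. In the Ly6 family 4 of 11 listed genes were tested, and Ly6c2, a myeloid member, rose from 9.63 ± 0.63 to 39.4 ± 3.44 FPKM (adjusted p = 5.16e-06), while Ly6e was at 275.0 ± 6.63 and 293.1 ± 5.57 FPKM (adjusted p = 0.189). Of the receptor kinases related to KIT and FLT3, Csf1r, the macrophage colony-stimulating factor receptor gene, rose from 6.37 ± 0.24 to 8.61 ± 0.67 FPKM (adjusted p = 0.0151). Its call was lost without CD replicate 1, 2 or 3 (0.0643, 0.0679 and 0.0558). Pdgfrb rose from 15.7 ± 1.05 to 21.8 ± 0.33 FPKM (adjusted p = 0.00311). Podxl, a sialomucin related to CD34, was at 1.86 ± 0.03 and 1.47 ± 0.34 FPKM (adjusted p = 0.236).

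Of other surface markers of stem and progenitor cells 28 were tested. Of these 7 rose and 5 fell, against 13.9% called over all tested genes. Without CD replicate 1 or CD replicate 3, 6 rose and 0 fell, and without CD replicate 2, 6 rose and 2 fell. Their median log2 change was 0.08. Itga2b (CD41), found on megakaryocytes and some stem cells, rose from 36.1 ± 1.60 to 62.2 ± 4.30 FPKM (limma adjusted p = 0.000349). Fcgr3, an Fc receptor of myeloid progenitors, rose from 1.45 ± 0.26 to 5.44 ± 0.88 (adjusted p = 0.000609). Thy1 (CD90) rose from 6.81 ± 0.36 to 12.5 ± 1.65 FPKM (adjusted p = 0.00214). The tetraspanin gene Cd9 rose from 31.6 ± 2.25 to 45.3 ± 2.82 FPKM (adjusted p = 0.00311). These 4 passed in every alternative.

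Among the 14 tested genes used as reporters of, or largely restricted to, long-term stem cells, 3 rose and 3 fell, against 13.9% called over all tested genes. Their median log2 change was 0.12. The counts were lowest without CD replicate 1 or HCD replicate 1, at 1 and 1. Clca3a1 rose from 0.95 ± 0.22 to 4.95 ± 1.20 FPKM (limma adjusted p = 0.000879) and the von Willebrand factor gene Vwf from 2.67 ± 0.34 to 4.02 ± 0.29 (adjusted p = 0.0185). The transcription factor genes Mycn and Hlf fell, Mycn from 14.5 ± 0.14 to 7.95 ± 1.15 FPKM (adjusted p = 0.00166) and Hlf with an adjusted p of 0.0219. Fgd5 fell (adjusted p = 0.0265) and Pdzk1ip1 rose from 24.1 ± 2.32 to 30.1 ± 2.24 FPKM (adjusted p = 0.0386), both named after their values were seen. With the length trend removed Hlf, Fgd5 and Pdzk1ip1 did not pass (adjusted p = 0.164, 0.0561 and 0.0701), nor did Vwf without CD replicate 1 (0.0809). Each of these genes lost the call in other settings as well. Examples are TMM scaling for Hlf (0.0721) and no filter for Pdzk1ip1 (0.0805). Fgd5 did not pass without CD replicate 3 (0.102), nor Vwf without CD replicate 2 (0.0769). Clca3a1 and Mycn passed in every alternative.

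Several of the 10 are also genes of other cells, so the markers of those cells were read beside them. For endothelium, which carries endoglin, TIE2, EPCR and ESAM, 7 of 14 genes were tested. Of these 2 rose (Cldn5 and Pecam1) and 2 fell (Emcn and Egfl7), against 13.9% called over all tested genes. Egfl7 did not pass with TMM scaling (adjusted p = 0.0954 by limma). The summed FPKM of the 14 was 155.7 to 162.7 in CD and 152.3 to 161.4 in HCD. Most of the sum came from Egfl7 (73.2 ± 0.56 FPKM in CD), Pecam1 (32.5 ± 1.51) and Tie1 (31.5 ± 1.51), with Emcn at 11.2 ± 0.45. Of the other genes of the list, Cdh5 (VE-cadherin) reached at most 0.0743 FPKM, Kdr 0.381 FPKM, and Lyve1 was listed at 0 in all 6 libraries.

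For megakaryocytes and platelets 7 of 10 genes were tested. Of these 4 were higher (Itga2b, Gp1ba, Gp9 and Pf4) and 1 lower, against 13.9% called over all tested genes. Pf4 did not pass with no filter (limma adjusted p = 0.0898), nor Gp9 without CD replicate 3 (0.062), and 2 genes rose when CD replicate 2 or CD replicate 3 was left out. The summed FPKM of the 10 was 101.8 to 105.3 in CD and 130.8 to 144.1 in HCD, and Gp6 was at 0 in 5 of 6 libraries. For mast cells, which carry KIT, and basophils, 5 of 6 tested genes rose and 0 fell. The sum went from 34.8 to 39.9 FPKM in CD to 61.1 to 72.0 in HCD, with the mast cell protease gene Mcpt4 at 0 in 4 libraries. For myeloid progenitors 9 of 10 rose and 1 fell, from 931.7 to 953.7 FPKM in CD to 1703 to 1864 in HCD. These lists moved with the diet as Slamf1 and Esam did, and their part in those rises was not tested.

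For lymphoid primed progenitors, which carry CD135, 0 of 9 tested genes rose and 5 fell, against 13.9% called over all tested genes. The summed FPKM of the 10 genes was 452.3 to 478.3 in CD and 387.2 to 433.0 in HCD, with 0 of them at 0 in all libraries. The 5 became 2, Rag2 and Igll1, when any 1 CD library was left out, and without CD replicate 1 Il7r, Ccr9 and Notch1 had a limma adjusted p of 0.0531, 0.0539 and 0.0852. For dendritic cells, 0 of 4 tested genes rose and 2 fell (Bst2 and Ccr9), with sums of 195.6 to 200.9 FPKM in CD and 171.5 to 180.4 in HCD. Neither passed without CD replicate 1 (limma adjusted p = 0.0566 and 0.0539) or without CD replicate 3 (0.0512 and 0.055), and without CD replicate 2 Ccr9 did not (0.0508). That list includes Flt3 itself, and most of its sum was Flt3 (113.7 FPKM in CD and 104.5 in HCD) and Bst2 (80.8 and 68.7). The lower sum therefore largely repeats these genes. Siglech and Clec9a reached at most 0.296 and 0.333 FPKM. The part of these lists in the lower Flt3 values of HCD was not tested. For erythroid progenitors 0 of 6 rose and 1 fell (Hbb-bt, adjusted p = 0.0218 by limma, but 0.0857 without CD replicate 1).

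The profiles most like those of the 4 gate genes over the 6 libraries were sought among tested genes with a mean of at least 10 FPKM, by the root mean square difference of centred log2(FPKM + 1). They were those of Paf1 (0.009) and Numa1 (0.010) for Kit, Smc1a (0.021) and Bcl7c (0.022) for Ly6a, Rad23b (0.016) and Ngfrap1 (0.016) for Cd34, and Sptbn1 (0.013) and Setd7 (0.015) for Flt3. For scale, the root mean square spread of each gate gene about its own mean was 0.035 for Kit, 0.072 for Ly6a, 0.045 for Cd34 and 0.070 for Flt3. None of these 8 genes passed the test between diets.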

How the data were processed

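Per the labels' protocols, RNA was extracted from sorted cells with a micro column kit and stranded mRNA libraries were made. Builds GRCm38 and mm10, and the tools fastp, HISAT2 and StringTie, come from the submitters' processing notes. Their versions, the annotation and the strand setting were not given in the sources used here. What the authors deposited was read as FPKM because of its range and sums, as the headers hold a sample name alone. Of 21878 rows, 27 had dates for symbols and were dropped (0.127% of the FPKM). Without counts, no count model was used.

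Genes that reached 1 FPKM in 3 or more libraries (10676, all 10 markers among them, each at 1 FPKM or more in every library) were tested with limma 3.58.1 (R 4.3.3), on log2(FPKM + 1) with a variance trend and a robust fit. Tests were two-sided and p-values adjusted by Benjamini-Hochberg over all tested genes. A fold change on that scale understates the change of low genes. Depth came from genes with 1 annotated transcript, whose low values were whole reads within 0.05 of a read in 43.9% to 51.9% of cases, against 6.6% to 7.2% at the median trial depth. Read numbers behind a gene use its longest transcript and are approximate. Positions are from GENCODE vM21 (GRCm38) and promoters from RefSeq (GRCm38.p6). Antisense genes overlap Cd34 and Flt3 in GENCODE and have no row in the files, and the end of Eng overlaps that of Fpgs on the other strand. No gene had equal values in 2 libraries among 6175 genes at 10 FPKM or more.

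Same-numbered libraries deviated together from their group means over genes (correlations 0.103, 0.292 and 0.166), which met a bound of 0.1 for pairing. Differently numbered libraries came close to the lowest of these, at 0.098 for CD replicate 1 with HCD 3 and 0.094 for CD 3 with HCD 1. The labels do not say that the numbers pair, so the replicate block was an alternative fit. The other alternatives were another pseudocount, filters, scalings, removal of the length trend, a plain limma fit and leaving out each library. The test was checked on simulated data. The 10 markers and the gene lists were chosen with earlier results of these data known. The genes named from the lists are those past the threshold, up to 4 per list by smallest p, and others that show level or identity. The smallest p that an exact permutation of 3 against 3 can give is 0.1, so no such test was used. Some listed genes are not reported here.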

Additional observations from a re-analysis of the deposited data

How the results depend on the processing

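The count of genes past the threshold stayed within 1.5 times of 1488 in every alternative that kept all 6 libraries, with 797 higher and 564 lower after TMM scaling and 775 and 586 with the length trend removed, against 670 and 818. Leaving out single libraries gave 439 genes at the lowest (CD replicate 1 left out) and 2707 at the highest (HCD replicate 2 left out), with 556, 513 and 711 without CD replicate 2, CD replicate 3 and HCD replicate 1. Of the 10 marker genes 2 passed, and 1 passed with no filter, a filter of 5 FPKM (which drops Slamf1 and Tek from the test), the length trend removed or limma without trend and robust fit. With single libraries left out, 0 (without CD replicate 1 or CD replicate 3) to 4 (without HCD replicate 2) passed. With the replicate block 1873 genes and 2 markers passed, and the pairing changed no call among the markers. The log2 change of Kit turned to 0.02 with the length trend removed, and no other marker changed sign in any alternative. Of 52 other listed genes past the threshold, 52 kept the call with the replicate block, 38 in every alternative with all 6 libraries and 25 in every alternative. Without HCD replicate 2 the ligands and partners had 5 higher and 1 lower, and the SLAM family 3 and 1. The other surface markers then had 10 and 6, the long-term stem cell genes 4 and 3, and endothelium 3 and 2. The erythroid list had 1 and 1, and the lymphoid list 0 and 6. With TMM scaling and with each library left out, the mean levels of the 10 markers moved by less than the SD over the 6 libraries. Leaving out 1 of 6 values cannot move a mean by more than that SD. The TMM factors lay between 0.9686 and 1.015. The comparison thus cannot show whether levels are stable, and levels were not recomputed under the other alternatives. The cause of the shifts in the counts of calls was not tested. The depth limits Slamf1 and Tek most, the lowest of the 10. Flags for single libraries were not sought, because groups of 3 are too small for that rule.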

Other observations

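Ratios between marker transcripts within each library, chosen after the values were seen, do not depend on how libraries are scaled. The ratio of Cd48 to Slamf1 was 44.1, 28.8 and 46.0 in CD and 20.4, 23.8 and 20.0 in HCD. The ratio of Flt3 to Kit was 0.932, 0.931 and 0.940 in CD and 0.897, 0.875 and 0.879 in HCD, while that of Cd34 to Kit was 3.78, 4.05 and 3.78 in CD and 3.77, 4.19 and 3.68 in HCD. The ratio of Esam to Kit was 0.115, 0.118 and 0.128 in CD and 0.154, 0.146 and 0.179 in HCD, and that of Procr to Kit was 0.170, 0.159 and 0.162 against 0.186, 0.176 and 0.200. The ratio of Cd34 to Ly6a was 7.18, 6.98 and 7.0 in CD and 7.25, 7.51 and 7.54 in HCD. The groups did not overlap in these ratios except in that of Cd34 to Kit. Of single tested genes 37.7% did not overlap either. Slamf1, Esam, Flt3 and Ly6a were themselves apart between diets, so ratios that hold them largely repeat those separations. No test was made of the ratios.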
